A study of Mus musculus with 34 samples.

Results

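The data described here are the average effect of the 5xFAD transgenes on RNA in the mouse hippocampus. All 34 libraries of the series entered, 16 from mice that carried the transgenes and 18 from mice that did not, and sides were set by the genotype in the labels. The effect is the mean of the 4 groups with 5xFAD minus the mean of the 4 groups without it. It therefore averages over both chromosome 16 backgrounds and both treatments, and its purpose was to find amyloid effects, falls included, that were too small for any single pair of groups.

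The mice were 6 months old. Those without the transgenes were wild-type C57BL/6J (WT; 5 sham and 5 tofacitinib) or Dp16 (3 sham and 5 tofacitinib). Those with them were 5xFAD (4 sham and 5 tofacitinib) or 5xFAD-Dp16, which carry both modifications (3 sham and 4 tofacitinib). Dp16 mice have a duplicated segment of chromosome 16 that corresponds to human chromosome 21, and App lies in it. Sham animals were gavaged with 0.5% methylcellulose and the others with 15 mg/kg tofacitinib, an inhibitor of JAK1 and JAK3, every day for a month. There were 7 females among the 16 transgenic animals and 9 among the other 18. The design text of the series lists 6 tofacitinib 5xFAD animals and 4 sham 5xFAD-Dp16 animals; the libraries analysed here are 5 and 3. The labels number the samples within a group without saying that each came from a separate animal, so p-values measure the spread between these samples.

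5xFAD is a fast model of amyloid deposition. Human amyloid precursor protein and presenilin carrying familial Alzheimer's disease mutations are expressed from the Thy1 promoter, which is active in neurons, so amyloid is made in excess in neurons of the forebrain rather than wherever the endogenous gene is on. Microglia, the resident macrophages of the brain, gather at plaques. They are known to lower some genes of their resting state there and to switch on a program of lipid handling, lysosomal digestion and antigen presentation that depends on the receptor Trem2 and its adaptor Tyrobp. Astrocytes around plaques raise the intermediate filament Gfap, and part of the microglia turn on interferon-stimulated genes, which type I interferon induces through Janus kinases and STAT factors. In bulk tissue, more cells of a type and more RNA per cell cannot be told apart.

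Thy1, whose sequence the transgenes carry, served as the check of the genotype labels. Its level was 782 to 934 CPM (normalised read count per M, that is mega, counts of the library; median 880) in the 18 animals without the transgenes and 967 to 2880 CPM (median 2420) in the 16 with them. No animal crossed over, but the gap was narrow. The lowest transgenic values were 967 CPM in 5xFAD tofacitinib 2 and 1250 CPM in 5xFAD-Dp16 sham 4. Both libraries are among those described below as low in hippocampal markers, so the check is weakest for them. The main effect was a log2 fold change of 1.37 ± 0.11 (SE; adjusted p = 6.36e-10 by edgeR's quasi-likelihood test, which gives every adjusted p below unless another tool is named). App, the endogenous precursor gene, was at 1310 to 2590 CPM without and 1350 to 2990 CPM with the transgenes, and its main effect was 0.05 ± 0.07 (adjusted p = 0.855).

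Library totals were 14.9 to 21.1 M counts. In 3 libraries (WT tofacitinib 3, 5xFAD tofacitinib 2 and 5xFAD-Dp16 sham 4), 22 markers of the hippocampal subfields summed to 408 to 569 CPM, against 872 to 1430 CPM in the other 14 transgenic and 1030 to 1260 CPM in the other 17 libraries. In the same 3 libraries the 12 thalamus and habenula markers summed to 206 to 1530 CPM and the 12 striatum markers to 388 to 2080 CPM. Medians were 225 and 349 CPM with the transgenes, so the thalamus and habenula markers were not raised in all 3. Another library, 5xFAD-Dp16 tofacitinib 1, had raised thalamus and striatum markers and a hippocampal sum above those of the 3. Its mean log2 level of the hippocampal markers, 4.58, was still the lowest outside the 3, which were at 3.12 to 3.36. Choroid plexus markers ranged from 27.5 to 5740 CPM between animals, with a median of 80.7 CPM with and 884 CPM without the transgenes; none of the 12 was called. Results are therefore given also without the 3 libraries, and where it matters without the 4; the part of these differences in each result was otherwise not tested.

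A gene is called here when its adjusted p, corrected over all 17518 genes tested, is under 0.05. The transgenes raised 278 genes (1.59% of those tested) and lowered 1 (0.00571%). Without the 3 libraries, 276 genes were higher (1.54% of 17879) and 6 lower (0.0336%), and 239 of the 278 rises were called again. Without the 4 libraries the numbers were 278 higher (1.56%) and 6 lower (0.0337%). The median log2 fold change of all genes was 0.00. At an unadjusted p under 0.05 there were 1309 genes higher and 539 lower.

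**Figure D1:**
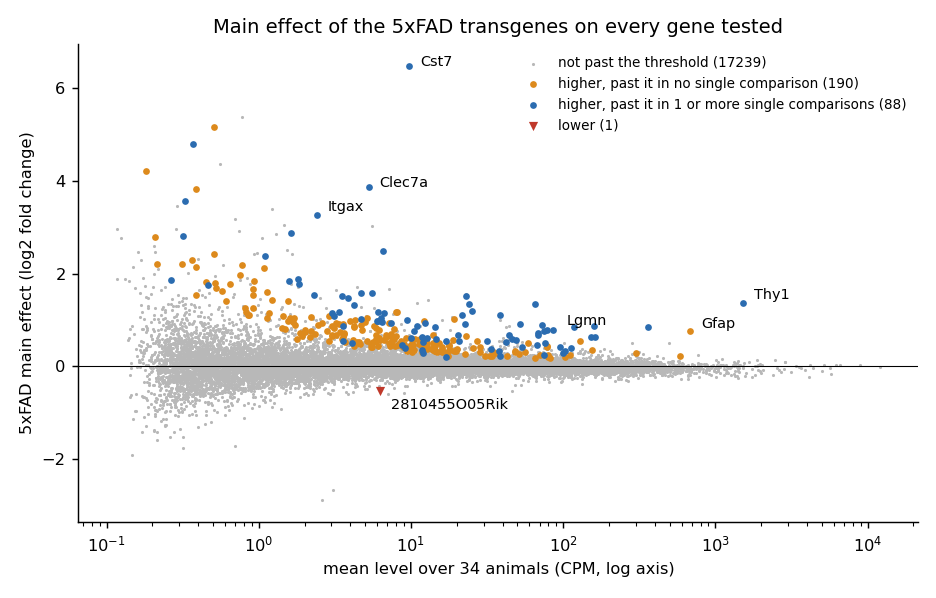
Each point is 1 of the 17518 genes tested: its mean level over the 34 animals (CPM, log axis) against the main effect of the 5xFAD transgenes (log2 fold change). The 278 rises reach 6.48 for Cst7, 190 of them (orange) were called in no single pair of groups and 88 (blue) in at least 1, and 2810455O05Rik is the 1 gene called lower.

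Most of the rises were small. The median was 0.67 on the log2 scale, and the range ran from 0.18 to 6.48. There were 16 rises under 0.25, 74 from 0.25 to 0.5, 113 from 0.5 to 1, 55 from 1 to 2 and 20 of 2 or more. Of the 278, 273 were protein-coding genes. The estimate was above 0 in all 4 of the pairs that make up the average for 273 of them, and in 3 pairs for the other 5; the average itself selected them, so this is a description.

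The 4 pairs taken alone called far fewer genes. In sham animals, 5xFAD against WT gave 78 (0.445%) and 5xFAD-Dp16 against Dp16 gave 0 (0%). With tofacitinib the same pairs gave 56 (0.32%) and 5 (0.0285%). The typical error of a gene with a mean of at least 10 CPM was 0.06 in the average against 0.11 to 0.15 in a single pair. Of the 279 genes called in the average, 88 had been called in at least 1 pair, 5 of them in 3. The other 191 had been called in none, and 190 of these rose (1.08% of all genes tested), with a median rise of 0.59 against 0.87 for those called in a pair.

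Among those with the smallest p and at least 1 CPM were Ifit3, Oasl2, Lgmn, Lgals9, Plcg2, Dock8 and Myo1f. Ifit3, an interferon-induced protein that helps block viral RNA, was at 4.27 to 15.3 CPM (median 7.68) without and 7.45 to 26.4 CPM (median 15.7) with the transgenes. The sides overlapped, and 10 of the 16 transgenic animals were above every other animal. Group means were 6.49 ± 1.78 CPM (SD, n = 5) in WT sham, 11.2 ± 3.46 CPM (n = 3) in Dp16 sham, 12.9 ± 3.36 CPM (n = 4) in 5xFAD sham and 23.7 ± 4.63 CPM (n = 3) in 5xFAD-Dp16 sham. With tofacitinib they were 7.2 ± 1.37 (n = 5), 9.69 ± 4.09 (n = 5), 12.1 ± 5.28 (n = 5) and 19.4 ± 4.22 CPM (n = 4) in the same order of genotypes. The 4 pairs put its log2 fold change at 1.05 and 0.74 on the WT background (sham and tofacitinib) and 1.09 and 1.04 on the Dp16 background, with errors of 0.26 to 0.33 and adjusted p of 0.114 to 0.66. The average was 0.98 ± 0.14 (adjusted p = 4.95e-05).

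Lgmn encodes legumain, the asparagine-cutting protease of the lysosome, on chromosome 12 (chr12:102394084-102439813, minus strand, GRCm38). It was a small and even rise: 125 to 151 CPM (median 135) without and 127 to 207 CPM (median 177) with the transgenes, and 14 of the 16 transgenic animals were above every other animal. The pairs gave 0.31 to 0.38, and the average was 0.35 ± 0.05 (adjusted p = 5.13e-05), a change of 1.27-fold. The highest values on each side were in the libraries low in hippocampal markers, 5xFAD-Dp16 sham 4 (207 CPM), 5xFAD tofacitinib 2 (200 CPM) and WT tofacitinib 3 (151 CPM); without the 3 libraries the effect was 0.30 (adjusted p = 2.45e-05).

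Oasl2, an interferon-induced relative of the oligoadenylate synthetases, rose by 1.18 ± 0.17 (adjusted p = 5.13e-05). Lgals9, a secreted galectin, rose by 0.58 ± 0.09 (adjusted p = 0.00013). Plcg2 is the phospholipase that signals below Trem2 and other immune receptors; it was at 4.25 to 6.94 CPM (median 5.56) without and 5.03 to 11.1 CPM (median 8.61) with the transgenes and rose by 0.63 ± 0.10 (adjusted p = 0.000145). Dock8, an exchange factor for Cdc42 in migrating leukocytes, and Myo1f, a myosin of immune cells, rose by 0.80 ± 0.13 and 1.04 ± 0.17 (adjusted p = 0.00016 and 0.000181). Each of these 7 genes was called again without the 3 libraries and in each of the 34 refits that left out 1 library.

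**Figure D2:**
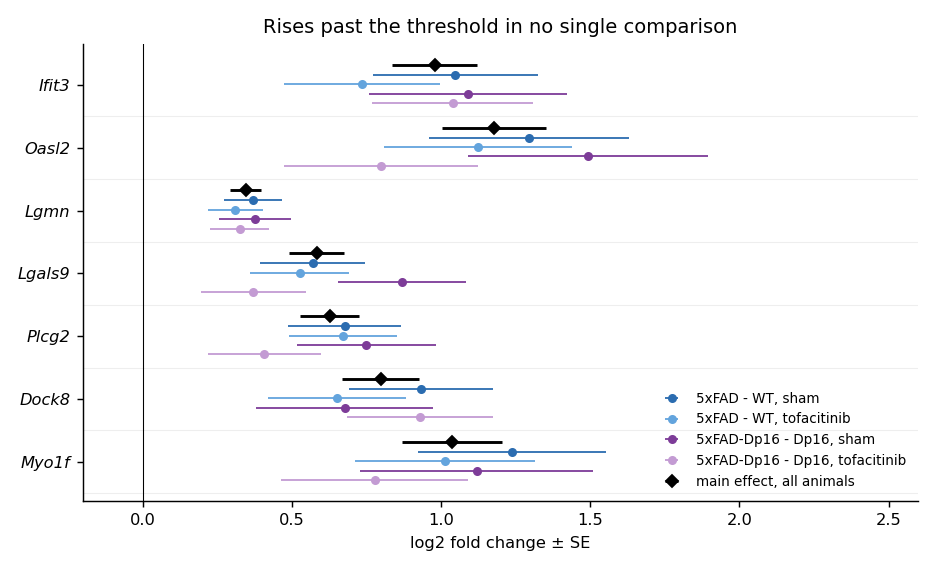
Of the rises that no single pair of groups called, 7 genes among those with the smallest p, with log2 fold change ± SE on the horizontal axis. The 4 coloured estimates of each gene are the 4 pairs and the black diamond is their average, whose bar is shorter; for Lgmn the pairs lie between 0.31 and 0.38.

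The largest rises with at least 1 CPM were in genes of microglia and other phagocytes. Cst7, the cysteine protease inhibitor cystatin F and a standard marker of microglia at plaques, was at 0 to 0.823 CPM (median 0.177) in the 18 animals without the transgenes and 2.25 to 48.1 CPM (median 17.8) in the 16 with them, a log2 fold change of 6.48 ± 0.46 (adjusted p = 6.11e-10). Clec7a, the receptor dectin-1 for fungal glucans, was next at 3.86 ± 0.36 (adjusted p = 9.77e-08); the annotation classes it as a polymorphic pseudogene, which kept it off the list of the 10 largest rises. That list went on with Itgax (the integrin CD11c) at 3.27 ± 0.42, then the chemokines Ccl3 (2.87 ± 0.39) and Ccl6 (2.48 ± 0.18), and Ly9, a receptor of the SLAM family (2.39 ± 0.34). Ifi204, an interferon-inducible DNA sensor, rose by 2.12 ± 0.37 and Cybb, the catalytic subunit of the phagocyte NADPH oxidase, by 1.89 ± 0.25. Gpr84, a receptor for medium-chain fatty acids, St14, a membrane protease, and Oas1a, an oligoadenylate synthetase, rose by 1.84, 1.78 and 1.61. Of these 11 genes, Ifi204 and Oas1a had been called in no single pair.

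In 9 genes (0.0514% of those tested) every transgenic animal was above every other animal, and in 0 genes every transgenic animal was below. The 9 were Thy1, Cst7, Ccl6, Clec7a, Cd68, Ctsz, Mpeg1, Cd180 and Grn. Clec7a was at 0.048 to 1.52 CPM against 2.36 to 23.4 CPM. Grn encodes progranulin, a secreted lysosomal regulator, and its gap was narrow: 45.0 to 58.9 CPM without and 59.2 to 127 CPM with the transgenes.

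**Figure D3:**
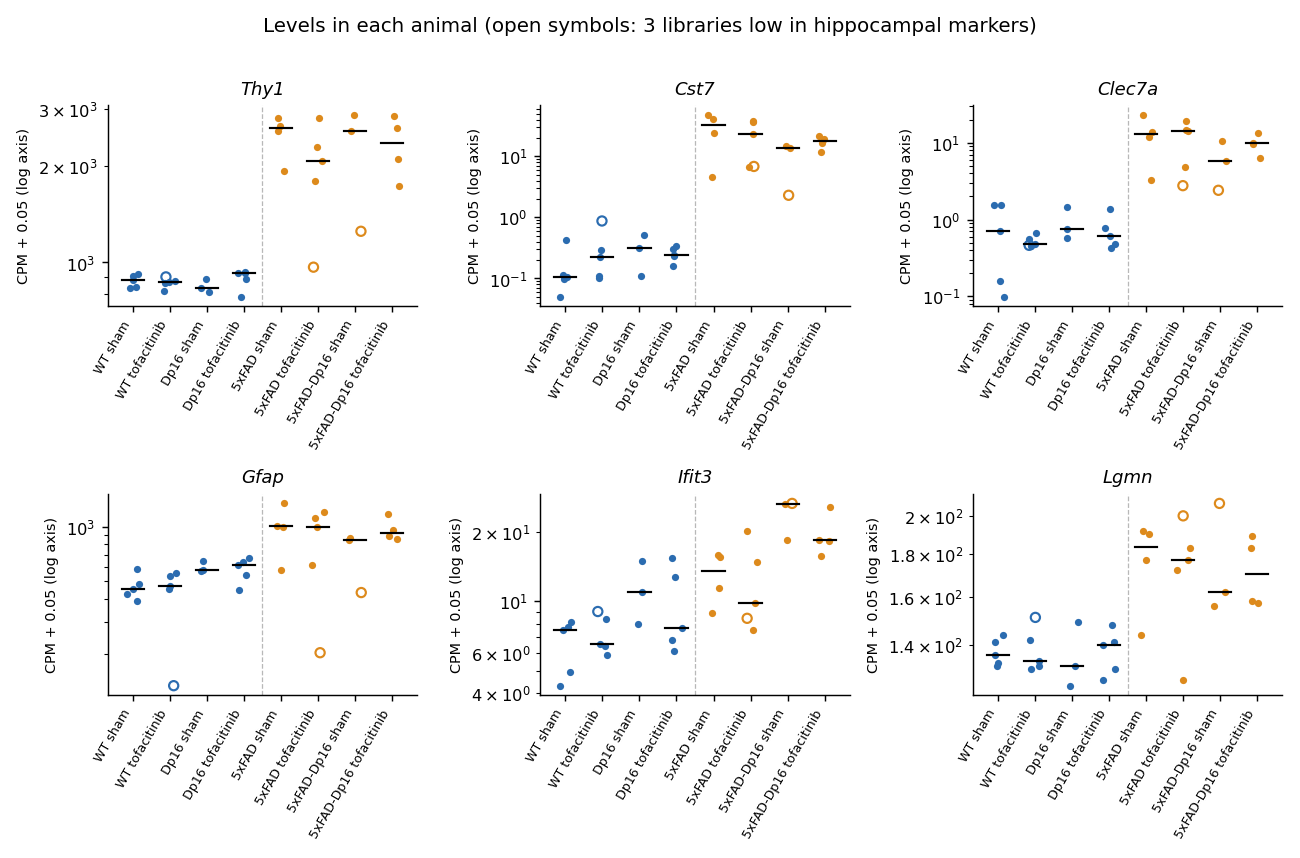
Levels of 6 genes in each animal (CPM + 0.05, log axis) by group, blue without and orange with the transgenes, the bar being the group median and open circles the 3 libraries low in hippocampal markers. Thy1, Cst7 and Clec7a separate the sides completely (Thy1 at most 934 against at least 967 CPM), Ifit3 and Lgmn overlap, and the 3 open circles are the lowest Gfap values of their groups.

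The lists of genes follow, each with the number called and most with the median of all tested members. Over all genes 1.59% were called higher and the median was 0.00. Of the plaque-associated microglia list, 20 of 29 members rose and the median was 0.96. Cd68, a lysosomal membrane protein of macrophages, was at 11.1 to 16 CPM without and 17.1 to 64.5 CPM with the transgenes and rose by 1.35 ± 0.13. At the lower end of the called members were Igf1 (0.46), Cd9 (0.42), Csf1 (0.32) and Axl (0.24), which encode a growth factor, a tetraspanin, a survival factor of microglia and a receptor for dying cells. The adjusted p of Igf1 was 0.0173 with all libraries, 0.0487 without the 3 and 0.0721 without the 4.

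Genes of resting microglia moved in the same direction. Of 17 homeostatic microglia genes, 12 rose, 0 fell and all 17 had an estimate above 0; the median was 0.49, and 7 of the 12 had been called in no single pair. Olfml3, a secreted glycoprotein, rose by 0.67 ± 0.09, Gpr34, a receptor for lysophosphatidylserine, by 0.67 ± 0.11 and Sall1, the transcription factor that sets microglial identity, by 0.37 ± 0.06. P2ry12, the ADP receptor of microglial processes, and Tmem119 had values of 0.32 ± 0.09 (adjusted p = 0.0825) and 0.19 ± 0.07 (adjusted p = 0.305); without the 3 libraries they were 0.41 (adjusted p = 0.000441) and 0.26 (adjusted p = 0.0215), and 15 of the 17 members were then called. P2ry12 and Tmem119 were chosen for naming after their values were seen.

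Within each animal the plaque-associated list was also compared with the homeostatic list. The difference of the lists' mean log2 levels was -1.73 to -1.23 (median -1.47) in the 18 animals without the transgenes and -1.09 to -0.64 (median -0.88) in the 16 with them, and the sides did not overlap. The lists were chosen with results of these libraries known, so no test is attached.

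Receptors for antibody and the signalling chains below them were also higher. Of 17 genes of Fc receptors and their ITAM adaptors 11 rose (median 0.51), 7 of them in no single pair. Fcgr2b, the inhibitory Fc receptor, rose by 1.18 ± 0.17, Fcgr1, the high-affinity receptor, by 0.98 ± 0.13, the phosphatase Ptpn6 by 0.93 ± 0.12 and the shared signalling chain Fcer1g by 0.86 ± 0.11. Of 13 complement genes 7 rose (median 0.54): C3ar1, the receptor for the C3a fragment, by 1.32 ± 0.15, and the chains of C1q, which start the classical cascade, by 0.85 ± 0.11 (C1qa), 0.79 ± 0.11 (C1qc) and 0.78 ± 0.10 (C1qb). C1qa was at 71.4 to 101 CPM without and 88.1 to 262 CPM with the transgenes, and 14 of the 16 transgenic animals were above all others.

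Of 30 lysosome genes 15 rose, and the median of all 30 was 0.28. The protease genes Ctsz (0.89 ± 0.09) and Ctss (0.87 ± 0.11), Grn (0.69 ± 0.09) and Gusb, which encodes beta-glucuronidase (0.67 ± 0.09), had the smallest p. Ctsz was at 41.5 to 59.7 CPM without and 62.8 to 143 CPM with the transgenes. The average also called Naglu (0.49), Ctsh (0.44), Lgmn (0.35) and Ctsb (0.21), an enzyme of heparan sulfate breakdown and 3 proteases, which no pair had called.

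Of 17 genes that handle lipid, 3 rose and the median was 0.12; they include Itgb5, a subunit of an integrin for dying cells (0.44 ± 0.07, adjusted p = 0.000349) and Abca1, the cholesterol exporter (0.29 ± 0.08, adjusted p = 0.045). Abca1 was called in 8 of the 34 refits without 1 library, its highest adjusted p being 0.188 without 5xFAD-Dp16 sham 4, and had 0.19 (adjusted p = 0.208) without the 3 libraries. In cholesterol synthesis 2 of 16 rose, with a median of 0.11 and 15 estimates above 0. Fdft1, squalene synthase, was at 89.9 to 127 CPM without and 85.0 to 149 CPM with the transgenes (0.25 ± 0.06, adjusted p = 0.0118). It overlaps Ctsb on the other strand, which itself rose, and the labels do not say whether the counting used strand.

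Of 16 chemokines and cytokines 4 rose, and the median of the 16 was 0.42. The 4 were Cxcl10 (1.84 ± 0.44), which attracts T cells, Cxcl16 (0.76 ± 0.19), Ccl9 (0.67 ± 0.16) and Tgfb1 (0.52 ± 0.09), the growth factor that maintains resting microglia. Cxcl10 spanned 0.0536 to 5.33 CPM with the transgenes and 0 to 1.64 CPM without, and its adjusted p of 0.0183 became 0.062 without 5xFAD-Dp16 sham 2; it was also past 0.05 without Dp16 sham 2 or Dp16 sham 3. Cxcl16 had an adjusted p of 0.0329 with all libraries and 0.0602 without the 3, and was called in 15 of the 34 refits without 1 library, with a highest adjusted p of 0.106 without Dp16 sham 3. Of 17 genes of Toll-like receptors and NF-kB 5 rose, and the median of the 17 was 0.27. The 5 were the receptor pair Cd180 (1.59 ± 0.20) and Ly86 (1.10 ± 0.13), the co-receptor Cd14 (0.88 ± 0.15), and the receptors for microbial RNA Tlr13 (0.93 ± 0.19) and Tlr7 (0.70).

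Of 38 type I interferon-stimulated genes tested 19 rose, all 38 estimates were above 0 and the median was 0.80. Lgals3bp, a secreted glycoprotein, was the 1 of the 19 that a single pair had called; it was at 12.9 to 60.5 CPM without and 26.5 to 82.3 CPM with the transgenes (1.11 ± 0.12, adjusted p = 6.68e-07). The 18 called by the average alone included Oas3 (2.21), Ifit3b (0.94), the transcription factors Irf7 (0.87) and Irf9 (0.48), and Ifit2 (0.37). Of 33 genes of the interferon-gamma response and MHC class I presentation 15 rose (median 0.44), among them Irf8, a transcription factor of myeloid cells (0.99 ± 0.13), the heavy chains H2-D1 (0.73 ± 0.09) and H2-K1 (0.53 ± 0.08), and their light chain B2m (0.64 ± 0.09). The range of H2-D1 was 34.9 to 92.8 CPM without and 50.3 to 121 CPM with the transgenes. In MHC class II 1 of 10 rose, with a median of 0.34 and a lowest estimate of -0.66 for Ciita. The gene that rose was H2-DMb1 (0.70, adjusted p = 0.0241), whose adjusted p was 0.15 without the 3 libraries. Without them 2 other members of that list were called, Cd86, a co-stimulatory ligand for T cells (0.73, adjusted p = 0.00181), and H2-Oa (1.09, adjusted p = 0.045). Among 23 components of JAK-STAT signalling 2 rose, with a median of 0.19 and a lowest estimate of -0.32 for Stat4. The 2 were the receptor chains Csf2rb (0.89 ± 0.20) and Il10ra (0.48 ± 0.11, adjusted p = 0.0137, and 0.0535 without 5xFAD-Dp16 sham 2). The near-identical Ifit3 and Ifit3b, the Oas genes, the Ifi200 genes and the H2 class I genes can share reads, and the labels do not say how a read with several matches was treated.

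The stretch before the start site of some of these genes is shown because the genes moved together and the DNA there holds known motifs. Upstream windows of RefSeq starts (GRCm38.p6, 250 bases before to 50 after the start) were present for 213 of the 278 rises. A pair of GAAA blocks 2 bases apart, the core of the interferon-stimulated response element, was found on either strand in 27 of these (12.7%). The pair was found in 3.61% of the 12640 tested genes with a window. Of the called genes with a window, 8 of 13 type I interferon genes (61.5%) and 0 of 17 plaque-associated genes held it. Of all tested members with a window, called or not, 13 of 26 type I interferon genes and 1 of 24 plaque-associated genes held it. The type I list consists of interferon-stimulated genes, and whether the motif goes with the amyloid effect within it was not tested. GAGGAAGT, a core of the site of PU.1, the factor that macrophages depend on, was found in 23 of the 213 (10.8%) against 3.32% of the 12640, but in 0 of the 17 called plaque-associated genes, 0 of the 7 called homeostatic microglia genes and 0 of the 13 called type I interferon genes with a window. The 250 bases before the start are printed 5′ to 3′ along the gene's strand, with matches in capitals: Ifit3 from chr19:34583279-34583528 (plus), Oas1a from chr5:120907526-120907775 (minus), Cxcl10 from chr5:92348890-92349139 (minus) for the first motif, and C1qc from chr4:136892915-136893164 (minus) for the second, which lies there on the other strand.
Ifit3: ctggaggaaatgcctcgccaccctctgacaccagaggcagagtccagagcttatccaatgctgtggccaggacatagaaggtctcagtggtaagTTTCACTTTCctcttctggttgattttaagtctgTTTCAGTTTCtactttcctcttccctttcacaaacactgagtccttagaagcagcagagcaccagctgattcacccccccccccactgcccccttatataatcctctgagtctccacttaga
Oas1a: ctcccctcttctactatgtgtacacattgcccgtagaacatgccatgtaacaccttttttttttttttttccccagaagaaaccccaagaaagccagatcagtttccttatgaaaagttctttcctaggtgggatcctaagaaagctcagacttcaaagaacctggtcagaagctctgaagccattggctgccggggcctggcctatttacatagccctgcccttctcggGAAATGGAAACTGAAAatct
Cxcl10: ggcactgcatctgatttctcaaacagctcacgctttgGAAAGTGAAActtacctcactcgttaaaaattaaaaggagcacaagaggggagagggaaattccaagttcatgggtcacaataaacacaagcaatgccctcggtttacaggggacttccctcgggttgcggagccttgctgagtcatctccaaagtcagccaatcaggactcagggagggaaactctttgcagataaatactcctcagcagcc
C1qc: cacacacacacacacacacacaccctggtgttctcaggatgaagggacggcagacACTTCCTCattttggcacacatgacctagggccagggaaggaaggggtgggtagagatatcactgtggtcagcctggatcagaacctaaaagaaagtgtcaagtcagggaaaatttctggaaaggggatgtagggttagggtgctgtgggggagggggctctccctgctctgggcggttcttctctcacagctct
A match is a description of the letters and does not show binding. In Ifit3 the matches lie 113 and 147 bases before the start, and in Oas1a they lie 5 and 11 bases before it and share letters.

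Astrocytes were represented mainly by Gfap. It was at 133 to 668 CPM (median 537) without and 202 to 1340 CPM (median 921) with the transgenes, and 12 of 16 transgenic animals were above all others. The lowest value on each side (WT tofacitinib 3 at 133 CPM, 5xFAD tofacitinib 2 at 202 CPM) came from a library low in hippocampal markers. With all libraries the effect was 0.75 ± 0.19 (adjusted p = 0.0351), and it was past the threshold in 15 of the 34 refits without 1 library (highest adjusted p = 0.0874, without Dp16 sham 3); without the 3 it was 0.82 ± 0.10 (adjusted p = 6.39e-06). Of the 22 reactive astrocyte genes 3 rose: Timp1, an inhibitor of matrix metalloproteases (1.86 ± 0.42), Gfap and Ggta1, a galactosyltransferase (0.54 ± 0.12), and the median was 0.19. Timp1 was near the floor, at 0 to 0.485 CPM without and 0.0577 to 0.743 CPM with the transgenes. The lowest estimate of the list was -1.38 for Lcn2, which was not called. Serpina3n, an acute-phase protease inhibitor, was at 0.46 (adjusted p = 0.193), and at 0.51 (adjusted p = 0.000892) without the 3 libraries. Of 20 genes of resting astrocytes 0 were called, with a median of 0.05.

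**Figure D4:**
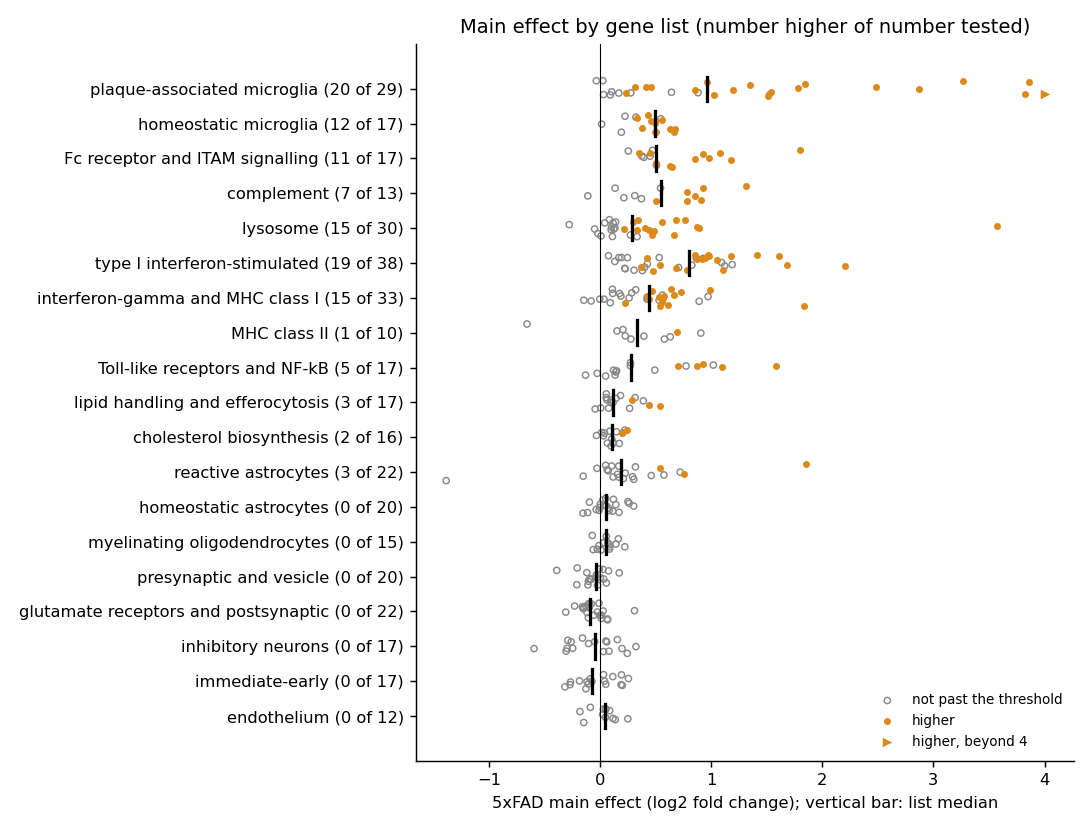
Main effect (log2 fold change) of each tested member of 19 of the 45 lists, filled where called higher and open where not, with the list median as a bar and the number higher of the number tested beside the name; Cst7 at 6.48 is drawn as a triangle at 4. Microglial and interferon lists lie to the right (medians 0.44 to 0.96 for the plaque-associated, homeostatic, Fc receptor, complement and both interferon lists), and neuronal, oligodendrocyte and endothelial lists lie around 0.

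In the fit of group means and sex to all animals, no gene was called in the lists of neurons, oligodendrocytes and vessels that follow. By edgeR, 0 of 20 presynaptic, 0 of 22 postsynaptic and glutamate receptor, 0 of 17 inhibitory neuron, 0 of 14 GABA-A receptor, 0 of 17 immediate-early and 0 of 20 calcium-handling genes were called, and their medians lay between -0.09 and -0.03. Without the 3 libraries these medians lay between -0.02 and 0.09. The lists of 15 myelinating oligodendrocyte genes (median 0.06), 12 precursor genes (0.07) and 12 endothelial genes (0.05) held 0 called genes as well. Other fits did call members: with 2 surrogate variables the interneuron gene Pvalb (-0.22, adjusted p = 0.0308; 0.08, adjusted p = 0.906, without them) and the glutamate receptor gene Grm3 (-0.18, adjusted p = 0.0175; -0.15, adjusted p = 0.193, without them), without the 4 libraries 1 presynaptic gene, and with no filter on low counts 8 of the 17 inhibitory neuron genes and 1 to 3 genes of each of the other lists named here. The highest and lowest 95% bounds of any presynaptic gene were 0.35 and -0.79, so changes of that size in single genes were not excluded at this number of animals. Of other immune cells, 9 border macrophage genes had a median of 0.06 and 0 called; 5 of 14 T and B cell genes and 4 of 9 monocyte and neutrophil genes passed the filter on low counts, and 0 were called. In the cell cycle list 1 of 13 rose, Mki67 (0.81), a marker of dividing cells. The median of that list was 0.09, and 9 of the 13 estimates were above 0. Its lowest estimate was -1.14 for Ccnb1, which was not called.

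The falls were few in the fits that filtered low counts, and which gene was called depended on the libraries and on the fit. With no filter on low counts 158 genes were lower, 150 of them among the genes of the main test. In the main fit of all 34 animals the 1 gene lower was 2810455O05Rik, a long non-coding RNA (chr8:123838553-123840785, minus strand, GRCm38) that overlaps the gene model Gm20388 on the other strand. It was at 5.55 to 10.4 CPM (median 6.89) without and 1.65 to 6.84 CPM (median 5.57) with the transgenes, a log2 fold change of -0.52 ± 0.13 (adjusted p = 0.0322). Its lowest values, 1.65 and 3.18 CPM, were in 5xFAD-Dp16 sham 4 and 5xFAD tofacitinib 2, both low in hippocampal markers. Without the 3 libraries the value was -0.37 (adjusted p = 0.0383), without the 4 it was -0.34 (adjusted p = 0.0704), and it was called in 26 of the 34 refits without 1 library, its highest adjusted p being 0.0756 without Dp16 sham 2. With a replicate block it was not called. Fbxl15, a substrate-binding subunit of a ubiquitin ligase, had -0.24 ± 0.07 (adjusted p = 0.0504) with all animals and lay past the threshold with DESeq2's size factors, without the sex term, with the replicate block, by DESeq2 and in the additive fit (adjusted p = 0.021 to 0.0468). Without the 3 libraries its adjusted p was 0.216. These genes and the falls below were chosen after their values were seen.

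Mme, the gene of neprilysin, a membrane protease known to cut amyloid-beta, was called lower in some fits and not in others. The 3 libraries low in hippocampal markers had high values whatever their genotype (12.3 CPM in WT tofacitinib 3, 11.2 CPM in 5xFAD tofacitinib 2 and 9.11 CPM in 5xFAD-Dp16 sham 4). In the other libraries Mme was at 3.79 to 9.07 CPM (median 5.46) in 17 animals without and 2.17 to 4.76 CPM (median 3.29) in 14 animals with the transgenes, and the sides overlapped. The log2 fold change was -0.68 ± 0.13 (adjusted p = 0.00116) without the 3, -0.72 (adjusted p = 0.000371) without the 4, and -0.49 ± 0.18 (adjusted p = 0.267) with all animals. With all animals it was also called with 2 surrogate variables in the fit (-0.80, adjusted p = 2.42e-05) and with no filter on low counts, and it was not called by DESeq2.

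Npy, neuropeptide Y of interneurons, was at 40.9 to 65.0 CPM (median 48.1) in those 17 and 34.9 to 57.3 CPM (median 39.6) in those 14 animals. It was lower by the test without the 3 libraries (-0.26 ± 0.07, adjusted p = 0.0412) and not without the 4 (-0.24, adjusted p = 0.0658). In the main fit of all animals it was not called (-0.53 ± 0.18, adjusted p = 0.221), and the values ran from 5.76 CPM in 5xFAD-Dp16 sham 4 to 134 CPM in WT tofacitinib 3. With no filter on low counts it was called with all animals. The other genes lower without the 3 libraries were Ift80, a component of the transport machinery of cilia (-0.21, adjusted p = 0.0412), Degs1, a ceramide-forming desaturase (-0.15, adjusted p = 0.0356), the gene model Gm6421 (-0.97, adjusted p = 0.00973) and 2810455O05Rik. Of these 6 falls 4 were also called without the 4 libraries.

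**Figure D5:**
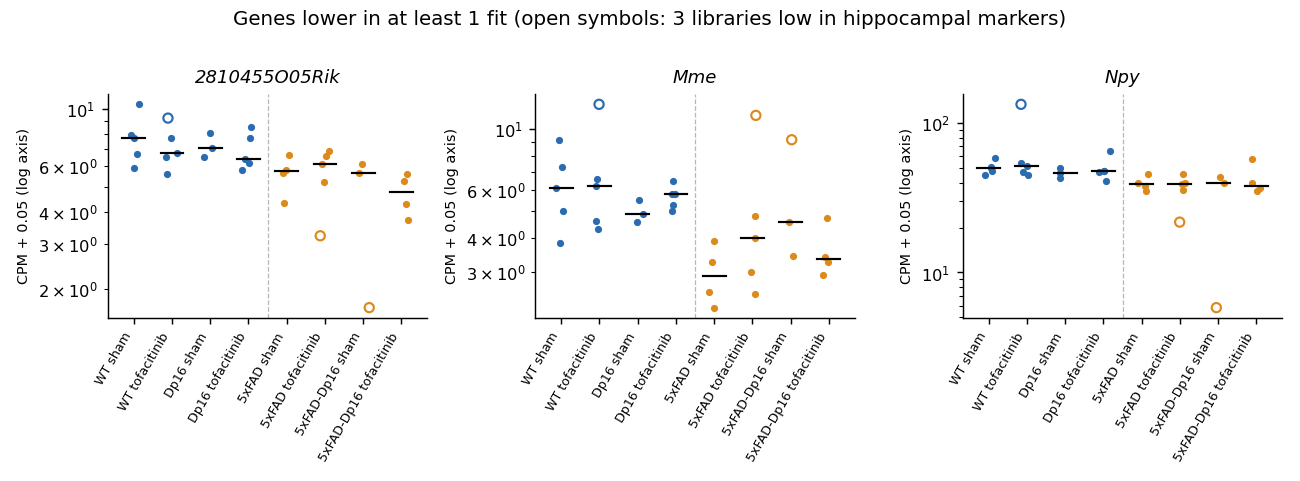
Levels of 2810455O05Rik, Mme and Npy in each animal (CPM + 0.05, log axis) by group, blue without and orange with the transgenes, with the group median as a bar and the 3 libraries low in hippocampal markers as open circles. The open circles of Mme lie at 9.11 to 12.3 CPM on both sides, and those of Npy at 134 CPM in WT and 5.76 and 21.7 CPM with the transgenes.

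Whether the average hides different effects was tested directly. By edgeR, 0 genes (0%) differed in their amyloid effect among the 4 backgrounds of segment and treatment, with 393 at an unadjusted p under 0.05 and a smallest adjusted p of 1; DESeq2 called 0. The effect differed with tofacitinib for 0 genes (324 unadjusted, DESeq2 0) and with the segment for 0 genes (851 unadjusted, smallest adjusted p = 0.942, DESeq2 1). The median of the 278 rises was 0.84 in sham and 0.69 in tofacitinib animals on the WT background and 0.54 and 0.58 on the Dp16 background; these are the genes the average selected, and the values are given as a description. The typical error of a rise was 0.23 to 0.29 in a single pair, so a difference between pairs of the size of many rises was within the error. A difference of the amyloid effect between the sexes, tested after seeing the data, was called for 0 genes (303 unadjusted).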

How the data were processed

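RNA from the hippocampus of 34 mice was poly(A)-selected, made into strand-specific libraries and read as pairs, per the labels' protocols. The deposited table holds whole read counts per gene, not normalised, made by the authors; the submitters' processing notes name HISAT2 2.1.0, HTSeq 0.6.1, SAMtools 1.5, FastQC 0.11.5, bcl2fastq and the build GRCm38. Strand and multi-match settings are not given in the sources used here. The authors' RPKM table was not used.

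Library totals were 14.9 to 21.1 M counts. Counts were TMM-scaled, filtered by group (filterByExpr, leaving 17518 genes) and fitted in edgeR 4.0.16 under R 4.3.3 by its robust, two-sided quasi-likelihood test, with 8 group means and a term for sex (25 residual degrees of freedom). P-values were adjusted by Benjamini-Hochberg over all genes, threshold 0.05. DESeq2 1.42.0, other scaling and filters, sva 3.50.0, a replicate block, an additive fit and refits without libraries were alternatives.

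The 45 gene lists and the genes compared were chosen with earlier results of these data known. The text names 2 check genes of the transgenes and 2 of glia, the 10 largest rises of at least 1 CPM, the 8 rises with the smallest p that no pair called, up to 4 members with the smallest p of each list with 2 called, and further list members (such as Igf1, Naglu, Oas3 and Serpina3n) and falls chosen after their values were seen; a few that the rule picks are left out here. Clec7a is outside the 10 largest rises because pseudogene types were left out. Promoter windows are from RefSeq (GRCm38.p6) and positions from GENCODE M21, which held 17508 of the 17518 genes. All 34 columns of counts were mapped to samples by name, and 0 others hold samples.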

Additional observations from a re-analysis of the deposited data

Results flagged for a closer look

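Single libraries stood apart from the rest of their group, by the gap to the nearest value relative to the group's range (Dixon's test at the 95% level), in 7 of 132 sets of values (22 genes in 6 groups of 4 or 5 animals). Chance marks about 1 in 20 such sets. Of the 7, 3 were in the libraries low in hippocampal markers: App at 2150 CPM in 5xFAD tofacitinib 2 (nearest 1560 CPM), Gfap at 133 CPM in WT tofacitinib 3 (nearest 454 CPM) and Cst7 at 0.823 CPM in WT tofacitinib 3 (nearest 0.247 CPM). Among animals without the transgenes, Cst7 was at 0.383 CPM in WT sham 4 (nearest 0.0626 CPM) and Ccl3 at 1.12 CPM in WT sham 2 (nearest 0.125 CPM). Among transgenic animals, Ly9 was at 3.16 CPM in 5xFAD tofacitinib 4 (nearest 1.41 CPM) and Dock8 at 6.48 CPM in 5xFAD-Dp16 tofacitinib 1 (nearest 10 CPM).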

How the results depend on the processing

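The average called 278 genes higher and 1 lower, 191 of them in no single pair. With no filter on low counts (31281 genes tested) it called 726 higher and 158 lower, 339 in no pair, and the amyloid effect differed among the 4 backgrounds for 358 genes, with tofacitinib for 8 and with the segment for 247. Most of these calls were not added genes: 693 of the higher and 150 of the lower were among the 17518 genes of the main test. Lower genes numbered 2 with DESeq2's size factors, 4 without the sex term, 13 with 2 surrogate variables, 21 by DESeq2 (which called 1 gene differing with the segment), 9 in the additive fit, and 6 without the 3 libraries or, chosen after seeing the data, without the 4. Sham groups alone gave 92 higher and 0 lower, tofacitinib groups alone 114 higher and 2 lower. Leaving out 1 library at a time gave 222 (without 5xFAD sham 2) to 318 higher, 1 to 18 lower and 150 to 251 called in no pair, the highest of each without 5xFAD-Dp16 sham 1, and 0 genes for the 3 differences. Of the 278 rises, 196 were called in all 34 such refits. The causes were not tested.

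Replicate numbers gave no sign of pairing the samples. Same-number libraries of different groups had a mean correlation of -0.048 (98 pairs, -0.653 to 0.439), and 3 libraries matched their own number best. Correlations of this kind cannot exclude a pairing. The replicate block gave 216 genes higher and 2 lower, with 209 of the 278 rises called. Of 63 called genes chosen for naming, 54 were called in each of the other fits on all groups. Among the genes chosen for naming, 0 values were counted as reversed. Pvalb, which the text names outside that choice, changed sign with 2 surrogate variables. Besides the losses in the report, Gfap, Ggta1, Timp1 and 2810455O05Rik were not called with the block, Timp1 not in the additive fit, and Cxcl10 not without the sex term. Genes of low counts and changes within the errors given were limited by depth and the number of animals.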

Other observations

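Of the 278 rises, 159 belonged to none of the 45 lists. Barhl1, a transcription factor, was chosen for naming after its values were seen: it had a median of 0 CPM and reached 9.93 CPM in 5xFAD-Dp16 sham 4, a library with low hippocampal markers, with 3.3 CPM in 5xFAD tofacitinib 1 and 3.13 CPM in 5xFAD-Dp16 tofacitinib 1, and its log2 fold change of 5.15 (adjusted p = 0.0469) had an adjusted p of 1 without the 3 libraries. Among the 278 rises, 161 had a larger estimate in males than in females, with a median difference of 0.03 on the log2 scale. The same median over all genes tested was -0.0086, and the difference between the sexes was called for 0 genes.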
